A study of Homo sapiens with 15 samples.

Results

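MYC is a transcription factor that drives growth and division, and it binds DNA only as a pair with MAX. MAX also pairs with MXI1, MXD3, MXD4 and MNT, which occupy the same sites and repress transcription, so these proteins compete with MYC for MAX. MLX is a relative of MAX that pairs with MondoA and with some of the repressors, and it links the network to the response to glucose. MYC messenger RNA is known to be made and degraded quickly. The 7 genes were taken by name from the deposited tables of U2OS cells, a human osteosarcoma line, with all annotated 3' end regions of a name added together. They are 7 of 19531 gene names. They hold 18 regions, of which 13 had reads, and 98799 reads over all libraries. All 7 passed the filter on low counts in each of the tests of whole genes. Only MAX had regions that entered the test of a region against the rest of its gene.

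The assay was SLAM-seq. U2OS cells growing without synchronisation were given 4-thiouridine, a uridine analogue that enters new RNA, and EdU, which enters replicating DNA, for 45 minutes. Cells were then fixed and sorted by EdU and DNA content, and their RNA was alkylated so that 4-thiouridine reads as C. The groups are G1, Early_S, Late_S and G2 (also written G2/M in the labels), plus No_alkylation, whose RNA was left unalkylated and serves as the background, with 3 libraries each. All reads of a gene are its steady-state level, reads with a conversion (T>C reads) its nascent level, and T>C reads as a percentage of its reads its labelled share. Neither the source of the No_alkylation cells nor whether a group's 3 libraries are separate cultures is in the labels, so p-values measure the spread between these libraries, which may be technical.

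Most members had 1 main 3' end, given here in hg38 coordinates counted from 1. MYC reads came almost all (99.6%) from chr8:127740959-127741434 on the plus strand, 1517 bases before the 3' end of the RefSeq gene. MAX had 97.9% of its reads in chr14:65075124-65077802 on the minus strand, which lies inside the longest RefSeq gene model (65006101 to 65102695), and 2.02% in a second region, chr14:65083744-65084179. MXI1 reads all lay in chr10:110284988-110287365 (plus), which ends where the RefSeq gene ends. MXD3 had 98.3% of its reads in chr5:177307205-177307587 (minus), MXD4 99.0% in chr4:2247432-2250543 (minus), MNT all in chr17:2384060-2386900 (minus) and MLX all in chr17:42571604-42573239 (plus). The files do not mark these regions as exon, intron or UTR. The MLX region overlaps the gene model of PSMC3IP, the minor MXD3 region that of PRELID1 and the MXD4 region that of MIR4800. The remaining MAX region, chr14:65006174-65006203 with 35 reads, overlaps those of FNTB and CHURC1-FNTB. Whether counting used the strand is not given in the sources used here, so reads of these neighbours cannot be told apart from the member's own. At most 0.341% of a member's reads mapped to more than 1 place.

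The 15 libraries held 16096695 to 21803972 reads in the regions, with 1812606 to 4037464 T>C reads in alkylated libraries and 175212 to 182253 in No_alkylation. T>C reads were 22.3% of reads in G1, 18.4% in Early_S, then 10.0% in Late_S, 10.1% in G2 and 1.01% in No_alkylation. Of 8 mesenchymal and bone markers, all in the files, 6 had at least 10 reads on average, and TWIST1 had 0. Their summed level was 4954 to 6625 RPM (reads per 1000000 reads in the regions), against 11.03 to 36.6 for 6 epithelial markers, 0.708 to 4.88 for 6 blood markers and 0 to 1.80 for 4 endothelial markers. The sum of 6 G2/M genes was 576 to 608 RPM in G1 libraries, 736 to 739 in Early_S, 1231 to 1376 in Late_S, 1733 to 1744 in G2 and 1205 to 1240 in No_alkylation. In these genes the sums follow the order of the gates. The sum of 4 G1/S genes was 905 to 943 RPM in G1, 585 to 611 in Early_S, 345 to 380 in Late_S and 291 to 340 in G2. CDKN1A weighs most in this sum, with a mean of 323 RPM over the 15 libraries. CCNE1 had 148, CDC6 49.6 and CCNE2 9.34. The sum is thus not separate from the CDKN1A levels given further on. The sum of 4 S genes was highest in Early_S (1952 to 2117 RPM). In the S genes G1 (1556 to 1625) overlapped with both Late_S (1609 to 1652) and G2 (1501 to 1588).

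MYC and MAX, and MAX with its repressor partners, bind the E-box, whose letters are CACGTG and read the same on both strands. RefSeq promoter windows (GRCh38.p14, 250 bases before to 50 after a gene start) were at hand for 6 members, with 9 windows in all, and MYC was not searched. The E-box stood in 3 of the 9 windows, those of MXD4, MNT and MLX, against 7.26% of 35116 windows. The 3 stretches below are shown because they hold the recognition letters of the network's own proteins in the network's own genes. They read 5' to 3' along the gene's strand, with the E-box in capitals.
MXD4, chr4:2262315-2262359, minus strand, E-box 238 bases before the start: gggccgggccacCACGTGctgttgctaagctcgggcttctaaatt
MNT, chr17:2401221-2401280, minus strand, E-box 193 bases before the start: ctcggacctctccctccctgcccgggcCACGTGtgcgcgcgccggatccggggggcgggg
MLX, chr17:42567023-42567082, plus strand, E-box 50 bases before the start: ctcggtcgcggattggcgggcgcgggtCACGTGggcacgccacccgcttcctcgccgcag
A match describes these letters in this window and is no evidence of binding. Searched on both strands, the E2F motif TTTNNCGC stood in 0 of the 9 windows (6.89% of all windows) and the CHR motif TTTGAA in 0 of 9 (15.2% of all windows).

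At steady state, MYC was highest in G1 and fell in each later phase relative to G1, while MXD3, one of the repressors, rose in each relative to G1. MAX was lowest in Early_S and highest in Late_S and G2. MLX was lower in Early_S than in G1. MXI1, MXD4 and MNT did not pass the test across phases. Levels are given as CPM, which are counts scaled to 1000000 reads per library after TMM normalisation, and are relative to the other RNA of the library, so less RNA per cell and fewer cells with the RNA cannot be told apart. In edgeR's quasi-likelihood F-test across the 4 phases, with Benjamini-Hochberg adjustment over all genes at a threshold of 0.05, 4 of the 7 members were called, against 34.1% of 13755 genes. Of the 42 contrasts of 2 phases over the members, 14 were called at steady state. The share of all genes called ran from 0.145% in G2 against Late_S to 24.3% in Early_S against G1.

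MYC had 53.2, 64.0 and 72.1 CPM in the 3 G1 libraries, 40.7, 33.5 and 48.7 in Early_S, then 17.9, 19.7 and 23.2 in Late_S, and 25.5, 18.2 and 19.7 in G2. The G1 libraries lay above all others, the Early_S libraries lay between, and Late_S and G2 overlapped. The means were 63.1 ± 9.48 CPM (SD, n = 3) in G1, 41.0 ± 7.61 in Early_S, then 20.3 ± 2.67 in Late_S and 21.1 ± 3.87 in G2 (edgeR adjusted p = 3.00e-10). Relative to G1, MYC fell by 0.62 ± 0.18 log2 (SE) in Early_S (adjusted p = 0.00817), by 1.64 ± 0.18 in Late_S (adjusted p = 4.16e-09) and by 1.58 ± 0.18 in G2 (adjusted p = 8.06e-09), the last a 2.99-fold lower level. It was also lower in Late_S than in Early_S (-1.01 ± 0.18, adjusted p = 0.000114) and in G2 than in Early_S (-0.96 ± 0.18, adjusted p = 0.000147). Late_S and G2 did not differ beyond their spread (0.06 ± 0.18, 95% interval -0.30 to 0.41). The first step is the least secure, as Early_S against G1 lost its call without G1 replicate 3 (-0.52, adjusted p = 0.0736) or without Early_S replicate 2 (-0.50, adjusted p = 0.0669).

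MAX, the partner that MYC and its repressors need, had 108, 143 and 146 CPM in G1, 87.3, 88.5 and 91.5 in Early_S, then 171, 144 and 201 in Late_S, and 196, 194 and 193 in G2. All Early_S libraries lay below those of the other phases, and all G2 libraries lay above those of G1. The means were 132 ± 20.8 (SD, n = 3), 89.1 ± 2.17, 172 ± 28.6 and 194 ± 1.47 CPM in that order (adjusted p = 3.58e-10). MAX fell by 0.57 ± 0.11 log2 in Early_S relative to G1 (adjusted p = 0.000119) and was higher in Late_S than in Early_S by 0.95 ± 0.11 (adjusted p = 4.69e-08). In G2 it was 2.18-fold higher than in Early_S (1.13 ± 0.11, adjusted p = 3.85e-10) and 1.47-fold higher than in G1 (0.55 ± 0.11, adjusted p = 0.000177). Late_S was called above G1 as well (0.38 ± 0.11, adjusted p = 0.0109), but 1 Late_S library lay below 1 G1 library, and the call ended without G1 replicate 1 (0.25, adjusted p = 0.145) or without Late_S replicate 3 (0.25, adjusted p = 0.164). G2 and Late_S did not differ beyond their spread (0.18 ± 0.11, adjusted p = 0.668).

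MXD3, a repressor partner of MAX known for its expression in S phase of dividing cells in mouse, had 6.65, 8.39 and 7.26 CPM in G1, 25.2, 25.2 and 25.7 in Early_S, then 27.7, 31.1 and 31.2 in Late_S, and 22.4, 23.7 and 24.3 in G2. Every library of the later phases lay above all of G1. MXD3 rose by 1.77 ± 0.21 log2 in Early_S relative to G1 (3.41-fold, adjusted p = 2.40e-08), by 2.01 ± 0.22 in Late_S (4.03-fold, adjusted p = 1.12e-09) and by 1.66 ± 0.21 in G2 (3.16-fold, adjusted p = 8.62e-08). The libraries of the 3 later phases did not overlap, with G2 lowest and Late_S highest, but no contrast among them passed the test, and the widest gap was G2 minus Late_S (-0.35 ± 0.20, adjusted p = 0.624).

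MLX had 54.9, 57.7 and 53.3 CPM in G1, 33.9, 43.0 and 32.5 in Early_S, then 43.3, 57.4 and 41.9 in Late_S, and 45.6, 41.2 and 52.8 in G2. Early_S and G2 lay below G1 with no overlap, and Late_S overlapped with each of the other phases. It fell by 0.60 ± 0.16 log2 in Early_S relative to G1 (adjusted p = 0.00416), and its other contrasts did not pass. The test across the 4 phases (adjusted p = 0.0215) lost its call without G1 replicate 1 (adjusted p = 0.05004), Early_S replicate 1 (adjusted p = 0.0791) or Early_S replicate 3 (adjusted p = 0.108).

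The other repressor partners gave no call. MXI1 had 47.8 ± 5.95 CPM (SD, n = 3) in G1, 58.2 ± 4.03 in Early_S, then 53.4 ± 4.32 in Late_S and 52.2 ± 9.94 in G2 (adjusted p = 0.458). MXD4 had 16.96 ± 1.78, 19.0 ± 1.79, 15.9 ± 0.600 and 14.0 ± 2.81 CPM in the same order (adjusted p = 0.483). The phases overlapped, except that MXI1 lay higher in Early_S (54.1 to 62.2 CPM) than in G1 (41.8 to 53.7 CPM) and MXD4 lower in Late_S (15.2 to 16.4 CPM) than in Early_S (17.2 to 20.7 CPM). MNT, a repressor partner of MAX that most cell types express, had 10.8, 1.72 and 4.97 CPM in the 3 G2 libraries, against 7.28 to 12.4 in G1, 10.4 to 12.6 in Early_S and 7.05 to 9.38 in Late_S. The G2 libraries thus differ by more than any pair of phase means (adjusted p = 0.243), and G2 replicate 1 decides the outcome, since MNT was called without it (adjusted p = 0.0102). MNT counts are few, with 33 reads in G2 replicate 2.

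**Figure D1:**
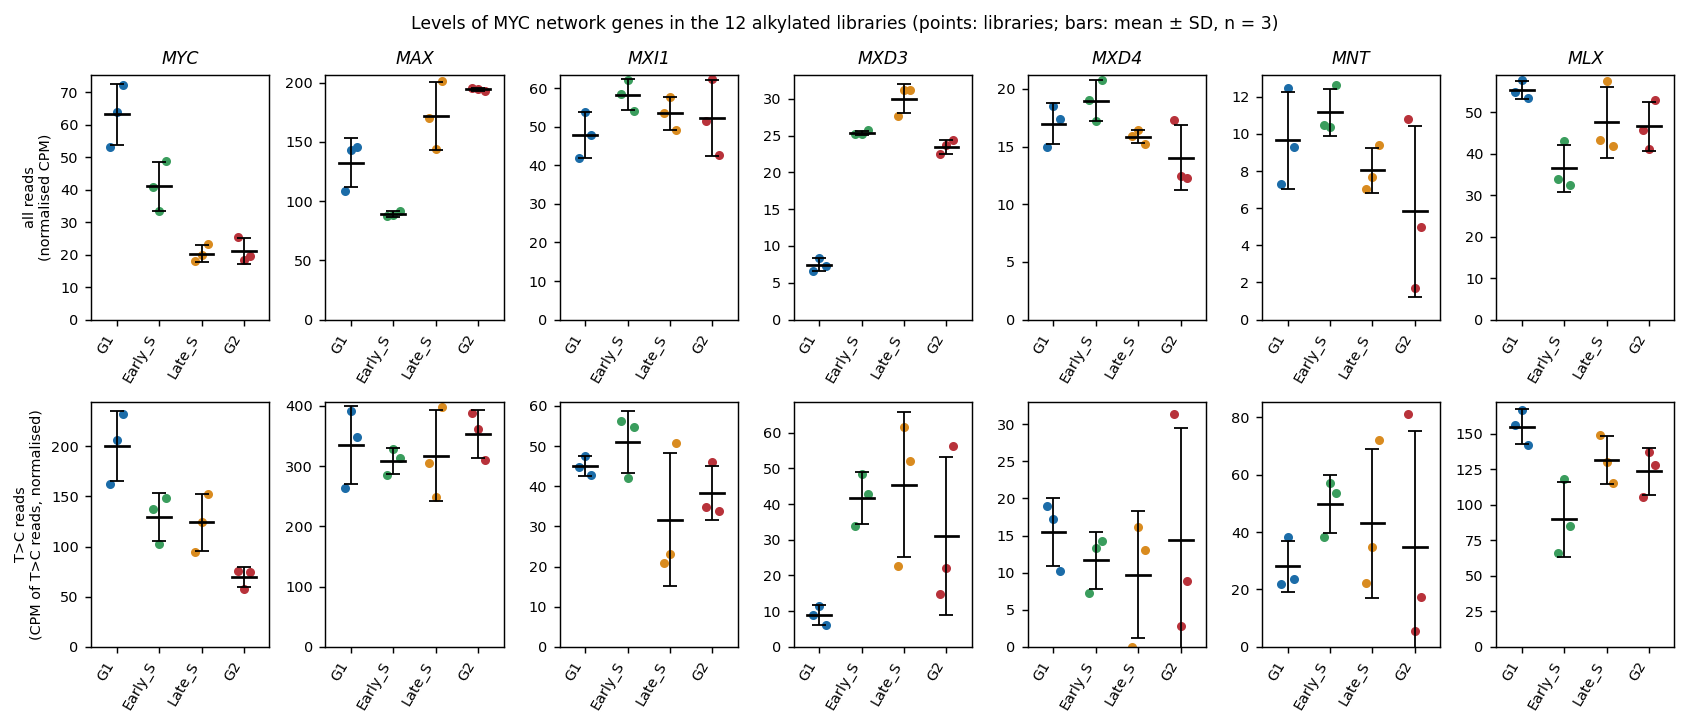
Levels of the 7 genes in G1, Early_S, Late_S and G2, from all reads (top row, normalised CPM) and from T>C reads (bottom row, CPM of T>C reads). Points are libraries, and bars are the mean ± SD of 3 libraries. In both rows the later phases have lower MYC means and higher MXD3 means than G1, whereas MAX varies in the top row (194 CPM in G2 and 89.1 CPM in Early_S) and has means of 309 to 353 CPM in the bottom row.

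The steady-state calls stand against a background that differs by contrast. In Early_S against G1, 4 of 7 members were called (24.3% of all genes), in Late_S against G1 3 (19.9%), in G2 against G1 3 (21.1%), in Late_S against Early_S 2 (11.2%), in G2 against Early_S 2 (19.3%) and in G2 against Late_S 0 (0.145%, with 0 members at an unadjusted p under 0.05). By direction, G2 against G1 called 2 members higher, MAX and MXD3, where 11.1% of all genes were higher, and 1 lower, MYC, where 10.0% were lower. The contrasts with G1 share the G1 libraries.

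The ratio of MYC to MAX reads was lower in every Late_S and G2 library than in every G1 and Early_S library. MYC had 47.8 ± 2.69 reads per 100 MAX reads (SD, n = 3) in G1, 45.9 ± 7.72 in Early_S, then 11.9 ± 1.63 in Late_S and 10.9 ± 1.92 in G2. In No_alkylation the ratio was 29.9 ± 3.79. MXD3 had 11.9 ± 1.61 reads per 100 MYC reads in G1, 63.4 ± 11.3 in Early_S, then 149 ± 12.5 in Late_S and 114 ± 22.7 in G2. These ratios of reads are descriptions of RNA ends and not of protein.

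In nascent RNA, MYC fell and MXD3 rose, and MAX did not pass the test. Of the 7 members 2 were called across phases by T>C reads, against 10.4% of 11474 genes. These levels are relative to the bulk of T>C reads in a library. When T>C reads are instead scaled by all reads, the median gene itself moves by -0.37 log2 in Early_S, then -1.22 in Late_S and -1.25 in G2 relative to G1. That scaling calls 5 of 7 members across phases, with 6340 of 11474 genes called.

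Nascent MYC had 163, 207 and 232 CPM in G1, 138, 103 and 148 in Early_S, then 95.1, 124 and 153 in Late_S, and 76.1, 57.9 and 75.0 in G2. The G2 libraries lay below all others, and Early_S and Late_S overlapped. Across phases the adjusted p was 0.000600. Nascent MYC fell by 1.52 ± 0.24 log2 in G2 relative to G1 (2.87-fold, adjusted p = 8.79e-05) and by 0.89 ± 0.24 relative to Early_S (adjusted p = 0.0253). The G2 against Early_S call ended without Early_S replicate 1 (-0.85, adjusted p = 0.0865), Early_S replicate 3 (-0.79, adjusted p = 0.114) or G2 replicate 2 (-0.78, adjusted p = 0.0827). Early_S against G1 (-0.63 ± 0.24, adjusted p = 0.150) and Late_S against G1 (-0.69 ± 0.24, adjusted p = 0.0900) did not pass, but both did when scaled by all reads (-0.98, adjusted p = 0.00815, and -1.91, adjusted p = 4.84e-07), and DESeq2 called Late_S against G1 (adjusted p = 0.0390). As RPM of all reads, T>C reads of MYC were 46.5 ± 9.04 in G1, 23.6 ± 5.09 in Early_S, then 12.4 ± 2.90 in Late_S and 6.93 ± 1.24 in G2.

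Nascent MXD3 had 8.99, 11.5 and 6.19 CPM in G1, 33.8, 48.4 and 42.9 in Early_S, then 22.7, 61.5 and 52.2 in Late_S, and 14.9, 22.1 and 56.2 in G2. All later libraries lay above G1, with wide spread in Late_S and G2. It rose by 2.22 ± 0.54 log2 in Early_S (adjusted p = 0.0108), 2.35 ± 0.54 in Late_S (adjusted p = 0.00644) and 1.81 ± 0.54 in G2 (adjusted p = 0.0370), each relative to G1. These calls rest on 26 to 45 T>C reads in a G1 library. Early_S against G1 ended without G1 replicate 1 (2.23, adjusted p = 0.0530) or 3 (2.02, adjusted p = 0.0843), and Late_S against G1 without G1 replicate 3 (2.14, adjusted p = 0.0593). G2 against G1 ended in 5 of the 12 fits that left out a library, those without G1 replicate 1, 2 or 3, Early_S replicate 3 or G2 replicate 3, with the smallest value, 1.05 (adjusted p = 0.291), without G2 replicate 3. The test across phases (adjusted p = 0.0181) likewise ended without G1 replicate 1 (adjusted p = 0.0885) or 3 (adjusted p = 0.131). Scaled by all reads, MXD3 kept its call in Early_S (1.87, adjusted p = 0.0347) and not in Late_S (1.15, adjusted p = 0.0820) or G2 (0.61, adjusted p = 0.342).

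Nascent MAX had 264, 391 and 349 CPM in G1, 285, 329 and 313 in Early_S, then 305, 248 and 398 in Late_S, and 389, 361 and 309 in G2. The 4 phases overlapped, and no contrast passed (adjusted p = 0.857 across phases, contrasts from -0.12 to 0.19 log2). The 95% interval of G2 minus G1 was -0.26 to 0.41. This outcome depends on the scaling: as RPM of all reads, T>C reads of MAX were 77.2 ± 12.6 in G1, 55.8 ± 1.87 in Early_S, then 31.6 ± 7.32 in Late_S and 34.9 ± 3.52 in G2, and G2 minus G1 was then -1.15 (adjusted p = 3.72e-06), where the median gene moved by -1.25.

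Nascent MLX was lower in Early_S than in G1 (66.1, 118 and 84.7 CPM against 156, 167 and 142), with no overlap (-0.79 ± 0.24 log2, adjusted p = 0.0493). That call ended in 9 of the 12 fits that left out a library, with adjusted p up to 0.267 (without Early_S replicate 1). It held only in the fits without Early_S replicate 2, G2 replicate 1 or G2 replicate 2. Across phases MLX did not pass (adjusted p = 0.131), nor did MXI1 (adjusted p = 0.658), MXD4 (adjusted p = 0.958) or MNT (adjusted p = 0.768). Scaled by all reads, MLX (adjusted p = 2.68e-06) and MXI1 (adjusted p = 0.000860) were called, with Late_S and G2 below G1 as for the median gene. MXD4 had 0 T>C reads in Late_S replicate 1 and 5 in G2 replicate 2, so its nascent level is poorly measured.

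By contrast, the members called in nascent RNA were 2 in Early_S against G1 (5.17% of all genes), 1 in Late_S against G1 (5.36%), 2 in G2 against G1 (7.30%), 0 in Late_S against Early_S (3.53%), 1 in G2 against Early_S (5.85%) and 0 in G2 against Late_S (0.0523%). At an unadjusted p under 0.05, each of the contrasts with 0 calls had 1 member, MLX in Late_S against Early_S and MYC in G2 against Late_S. In G2 against G1, MXD3 was the 1 member called higher (4.40% of all genes) and MYC the 1 called lower (2.90%).

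**Figure D2:**
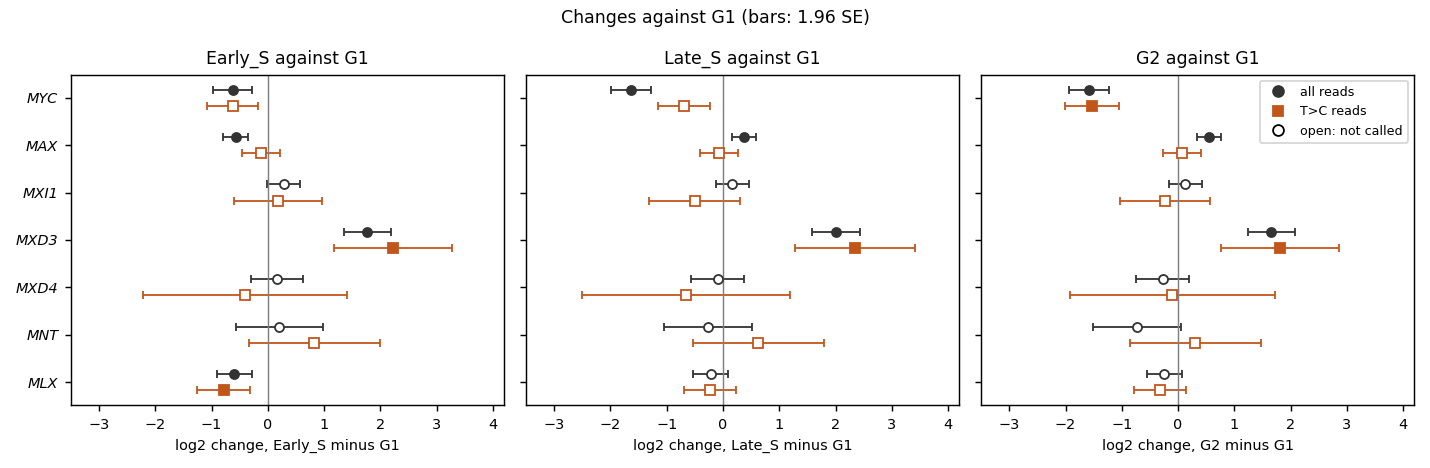
Log2 change of each gene in Early_S, Late_S and G2 relative to G1, from all reads (dark circles) and T>C reads (orange squares). Bars are 1.96 SE, filled symbols are called at an adjusted p under 0.05, and 0 means no change. MYC lies left of 0 and MXD3 right of 0 in all 3 panels, and MAX is filled right of 0 in Late_S (0.38) and G2 (0.55) for all reads but open for T>C reads.

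The labelled share was above background for every member. In edgeR's test of alkylated against No_alkylation libraries, 7 of 7 members were called, with 84.4% of 12909 genes called. The log2 ratio of T>C to other reads was higher by 3.97 ± 0.83 for MXI1, the least, by 6.38 ± 0.85 for MAX and by 8.02 ± 0.94 for MYC (adjusted p = 2.87e-09). In No_alkylation, MYC had a labelled share of 0.700%, MAX 0.907%, MXI1 1.19%, MXD3 0.252%, MXD4 0.122% and MLX 0.557% (means, n = 3). MNT had 0 T>C reads in 435, which allows a share of up to 0.690% by counting error alone.

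MYC was heavily labelled. Its labelled share was 72.8%, 69.2% and 77.9% in G1, 65.5%, 54.3% and 56.6% in Early_S, then 52.0%, 63.7% and 64.7% in Late_S, and 29.6%, 29.3% and 38.9% in G2. G1 lay above and G2 below all other libraries. The means were 73.3% ± 4.38 (SD, n = 3), 58.8% ± 5.93, 60.1% ± 7.07 and 32.6% ± 5.46. With the libraries of a group pooled, the median gene with at least 300 reads had 26.7% in G1, 19.9% in Early_S, then 9.87% in Late_S and 9.60% in G2, and MYC stood at the 94.4th, 88.9th, 97.5th and 90.8th percentile in that order. Its conversion rate (conversions per 100 covered T positions) was 6.83% ± 0.548 in G1, 4.74% ± 0.490 in Early_S, then 4.81% ± 0.539 in Late_S and 2.49% ± 0.426 in G2, against 0.0268% in No_alkylation. By pooled conversion rate, which takes account of how many T positions a read covers, MYC ranked lower. It then stood at the 88.8th, 77.6th, 92.0th and 79.3rd percentile in the same order.

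MAX was heavily labelled in G1 and Early_S and far less in Late_S and G2. Its labelled share was 58.1%, 58.4% and 58.0% in G1, 63.1%, 65.6% and 63.7% in Early_S, then 17.5%, 17.4% and 19.5% in Late_S, and 19.7%, 17.1% and 16.4% in G2. Early_S lay above G1, and both lay far above Late_S and G2, which overlapped. The conversion rate followed the same order, with 5.59% ± 0.303 (SD, n = 3) in G1, 7.55% ± 0.219 in Early_S, then 1.99% ± 0.168 in Late_S and 1.94% ± 0.353 in G2. MAX stood at the 87.2nd percentile of genes in G1, the 90.9th in Early_S, the 74.3rd in Late_S and the 74.9th in G2. By pooled conversion rate it stood at the 82.6th, 88.9th, 69.8th and 71.0th in the same order. Unconverted MAX reads were 55.6 ± 8.89 RPM in G1, 31.2 ± 1.44 in Early_S, then 141 ± 22.2 in Late_S and 162 ± 3.98 in G2.

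**Figure D3:**
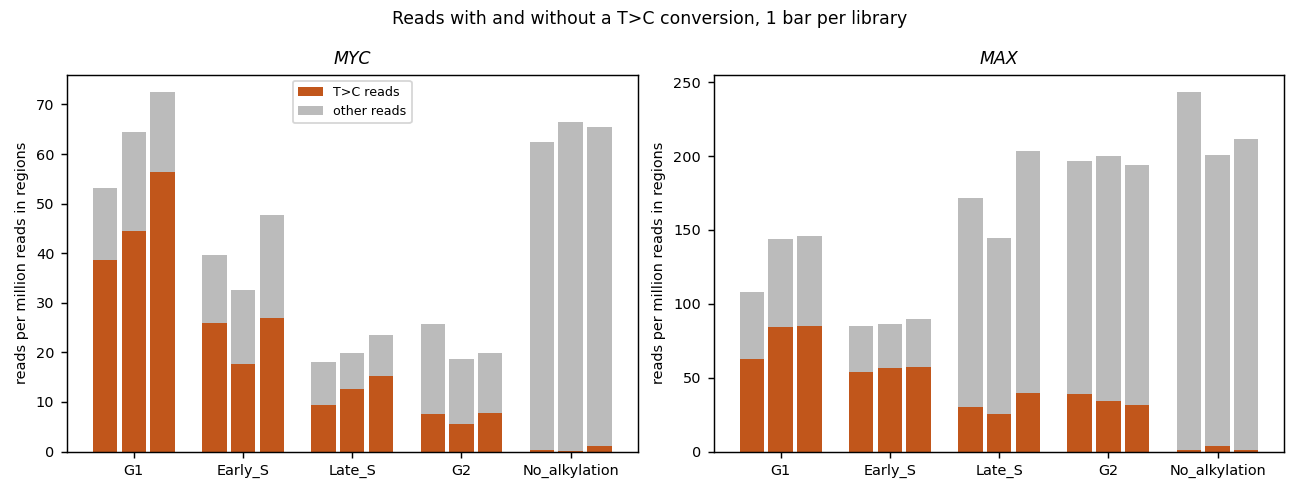
RPM of reads with (orange) and without (grey) a T>C conversion for MYC and MAX, with 1 bar per library and the groups G1, Early_S, Late_S, G2 and No_alkylation from left to right. MAX has more unconverted reads in Late_S and G2 (means of 141 and 162 RPM) than in G1 and Early_S, and MYC has fewer converted reads in each later phase (6.93 RPM in G2 and 46.5 RPM in G1).

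The test of the labelled share asks whether a gene's ratio of T>C to other reads changed relative to the bulk of genes. The bulk is the reference since the share of the median gene itself fell, from 26.7% in G1 to 19.9% in Early_S and 9.87% in Late_S. The test called 2 of 7 members across phases, MAX (adjusted p = 9.96e-08) and MYC (adjusted p = 0.00549), against 14.8% of 11291 genes. MAX was lower relative to the bulk in Late_S than in G1 (-1.10 ± 0.19 log2, adjusted p = 0.000354) and in G2 than in G1 (-1.12 ± 0.19, adjusted p = 0.000286). The gap to Early_S was wider, at -1.86 ± 0.19 in Late_S (adjusted p = 4.66e-07) and -1.87 ± 0.19 in G2 (adjusted p = 3.31e-07). MAX was higher in Early_S than in G1 (0.76 ± 0.19, adjusted p = 0.0159), a call that ended without G1 replicate 1 (adjusted p = 0.0555), G1 replicate 3 (adjusted p = 0.0593) or Early_S replicate 2 (adjusted p = 0.0623), and with scaling by all reads (0.36, adjusted p = 0.308). MYC was called once, higher in Late_S than in Early_S (1.24 ± 0.33, adjusted p = 0.0191). The MYC share itself was 60.1% in Late_S and 58.8% in Early_S, while that of the median gene was lower in Late_S. Scaled by all reads the MYC difference was 0.08 (adjusted p = 0.888), and it also ended without Early_S replicate 2 or 3 or Late_S replicate 2 or 3 (adjusted p 0.0772 to 0.0953).

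The members called in the labelled share were 1 in Early_S against G1 (5.36% of all genes), 1 in Late_S against G1 (7.64%), 1 in G2 against G1 (8.87%), 2 in Late_S against Early_S (8.28%), 1 in G2 against Early_S (10.7%) and 0 in G2 against Late_S (0.0443%, with 1 member, MYC, at an unadjusted p under 0.05). MYC in G2 against G1 gave -0.95 ± 0.33 (adjusted p = 0.0785), and in G2 against Late_S -1.63 ± 0.34 (adjusted p = 0.0898), where 5 genes in all were called. With no filter on low counts, MYC in G2 against Late_S was called (-1.63, adjusted p = 0.0173).

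The other members differed widely in labelling. MNT had a share of 66.6% ± 5.06 (SD, n = 3) in G1, 82.4% ± 13.7 in Early_S, then 50.7% ± 22.8 in Late_S and 46.8% ± 23.9 in G2, from the 91.5th to the 97.0th percentile of genes. MLX had 64.7% ± 2.99, 44.9% ± 6.31, 27.9% ± 5.44 and 26.1% ± 4.09 in the same order, from the 81.1st to the 90.9th percentile. MXI1 had 22.1% ± 3.27, 16.5% ± 3.92, 6.02% ± 3.59 and 7.19% ± 0.810, below the median gene in each phase. MXD4 had 21.4% ± 8.03, 11.3% ± 3.47, 6.11% ± 5.34 and 9.18% ± 8.12, and MXD3 27.4% ± 6.04, 30.3% ± 4.08, 14.8% ± 6.12 and 12.9% ± 9.30. Pooled, MXD4 stood between the 25.5th and the 51.7th percentile of genes and MXD3 between the 51.6th and the 68.1st. None of these 5 was called (adjusted p from 0.221 for MLX to 0.897 for MXD4). Scaled by all reads, MLX (adjusted p = 5.75e-05), MXI1 (adjusted p = 0.000312) and MXD3 (adjusted p = 0.0472) were, with lower ratios in Late_S and G2 than in G1. That scaling called 7120 of 11291 genes across phases. The median gene itself moved by -1.64 log2 in Late_S and -1.75 in G2 relative to G1. The share depends on how many T positions a read covers, which was 12.5 per read for MXD3, 14.7 for MXD4, 18.3 for MNT, 20.6 for MXI1, 21.4 for MLX, 25.9 for MYC and 26.1 for MAX. By conversion rate, which takes account of this, MNT still had the highest pooled value of the 7 in every phase (7.25% in G1, 12.1% in Early_S, then 8.36% in Late_S and 7.51% in G2).

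**Figure D4:**
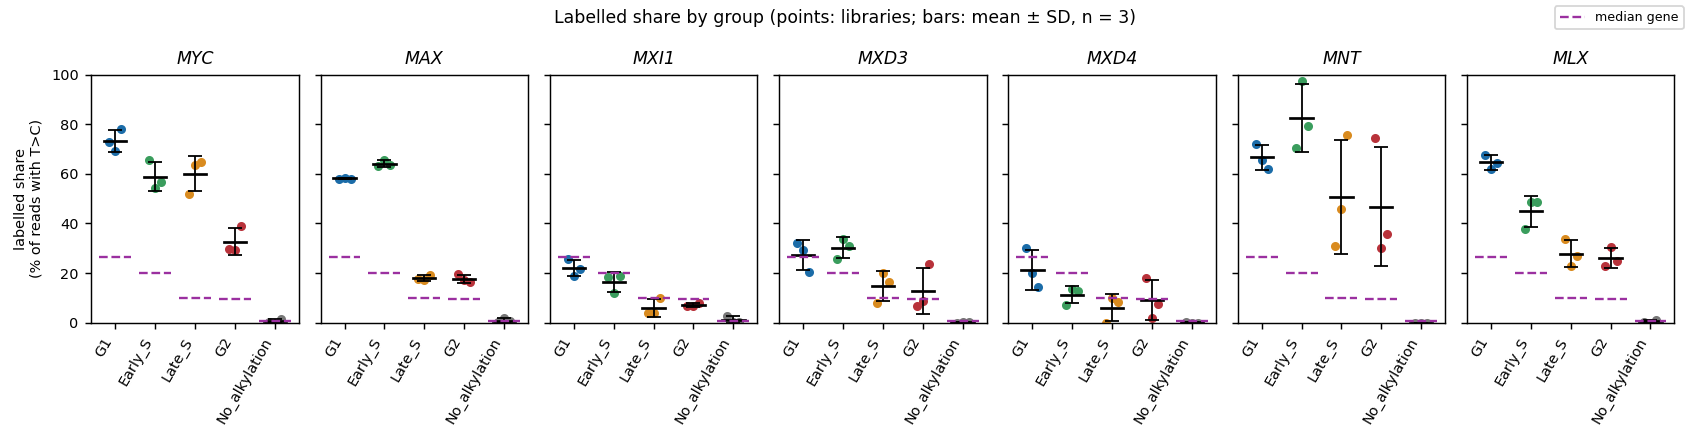
Labelled share (percentage of reads with T>C) of the 7 genes in G1, Early_S, Late_S, G2 and No_alkylation, with points for libraries and bars for the mean ± SD of 3 libraries. Dashed lines mark the median gene of each group (9.60% in G2 and 26.7% in G1). MYC, MNT and MLX lie above the line in all 4 phases, and MAX lies far above it in G1 (58.2%) and Early_S (64.1%) and nearer to it in Late_S (18.1%) and G2 (17.7%). The MXI1 means lie below it in all 4 phases, though Late_S replicate 3 (10.2%) lies above the Late_S line (9.87%). In No_alkylation the MXI1 mean (1.19%) lies above the line (0.545%).

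The 2 MAX regions with the most reads were asked about separately. The second region took 4.78% ± 1.98 of MAX reads (SD, n = 3) in G1, 3.28% ± 2.22 in Early_S, then 1.17% ± 0.502 in Late_S, 1.22% ± 1.06 in G2 and 1.21% ± 0.592 in No_alkylation. In edgeR's test of the use of 1 region against the rest of its gene, neither MAX region was called (adjusted p = 0.704 for the main region and 0.805 for the second). The test called 0% of 10678 regions, of which 696 had an unadjusted p under 0.05, with a p of 0.0257 for the main MAX region and 0.0794 for the second.

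No_alkylation levels were normalised over all 15 libraries. MAX stood at 212 ± 23.3 CPM (SD, n = 3) there, above all its phase means (89.2 in Early_S to 196 ± 1.33 in G2). MLX and MXI1 also lay above theirs. MLX had 68.2 ± 6.08 against 36.5 in Early_S to 55.8 ± 2.24 in G1. MXI1 had 60.3 ± 4.38 against 48.2 in G1 to 58.3 in Early_S. The other members lay within the range of their phase means. MYC had 62.9 ± 1.45, near its highest mean (63.7 ± 9.59 in G1). MXD3 had 14.8 ± 2.87, between 7.50 ± 0.890 in G1 and 30.3 in Late_S. MXD4 had 16.3 and MNT 8.02. Since the cells are not named, these levels were not tested against a phase. An effect of alkylation on the level from all reads was not tested.

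Across the 12 alkylated libraries, the gene whose level followed MYC most closely was ZFP36L1, a protein that promotes decay of AU-rich messages (Pearson r = 0.96 of log2 CPM, among 6462 genes with at least 20 CPM). CTGF, a matrix protein gene, followed (0.96), then CDKN1A, which encodes the cell cycle inhibitor p21 (0.95), TRIB1, a pseudokinase (0.95), and FAM46A (0.95). ZFP36L1 averaged 972 CPM in G1, 702 in Early_S, then 405 in Late_S and 367 in G2. For MAX the closest were PITPNB, a lipid transfer protein (0.96), and WDR75, a ribosome assembly factor (0.96), and for MXD3 the metallothionein MT1E (0.99) and the adhesion protein MCAM (0.98). The closest to MXI1 were HIBCH (0.84) and TMTC3 (0.83), to MXD4 ANXA8 (0.87) and DNASE2 (0.86), to MNT C1QBP (0.88) and ARPC3 (0.86), and to MLX ZRANB2 (0.91) and NAMPT (0.91). Among the members themselves, r was -0.78 for MYC with MXD3, -0.57 for MYC with MAX and 0.84 for MXD4 with MNT. These are descriptions over 12 libraries in 4 phases that share libraries and depth.

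Of 6 further genes of the network, 4 had enough reads to test, and 1 was called at steady state. MGA, a large repressor that pairs with MAX, had 15.5 ± 3.02 CPM (SD, n = 3) in G1, 8.63 ± 1.65 in Early_S, then 17.4 ± 2.91 in Late_S and 21.2 ± 2.26 in G2 (adjusted p = 0.000917), and it fell by 0.84 ± 0.26 log2 in Early_S relative to G1 (adjusted p = 0.0129). MLXIP, which encodes MondoA, the partner of MLX, had 116 ± 19.2, 95.4 ± 9.88, 118 ± 8.81 and 117 ± 8.14 CPM (adjusted p = 0.0888). MXD1 (adjusted p = 0.526) and MYCL (adjusted p = 0.755) had few reads. MYCN, with at most 32 reads over the libraries of a phase, and MLXIPL, with at most 3, were not tested. In nascent RNA edgeR called 0 of the 4 across phases, with 0 at an unadjusted p under 0.05, and 1 of the 4 had such a p in G2 against Early_S.

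The lists that follow are to be read against all genes, of which 34.1% changed across phases at steady state and, in G2 against G1, 11.1% were higher and 10.0% lower. In nascent RNA 10.4% of all genes changed across phases and, in G2 against G1, 4.40% were higher and 2.90% lower. Of 20 cofactors of MYC, 8 changed across phases. In G2 against G1, edgeR called 5 higher and 0 lower (0 lower also at an unadjusted p under 0.05, median log2 change 0.26, against -0.01 over all genes). HCFC1, a chromatin cofactor that MYC binds, rose by 0.45 ± 0.08 (354 ± 19.97 against 259 ± 24.2 CPM, adjusted p = 4.39e-05), and WDR5, a scaffold of histone methylation, by 0.45 ± 0.12 (adjusted p = 0.00726). BPTF, a chromatin remodeller subunit, fell by 0.48 ± 0.13 in Early_S relative to G1 (adjusted p = 0.00450). Of 14 measured genes that act on the stability of the MYC protein, 9 changed across phases, and in G2 against G1 6 were higher and 1 lower (median 0.29). AURKA, a mitotic kinase that shields N-MYC from degradation, rose by 2.18 ± 0.12 (230 ± 7.52 against 51.0 ± 10.2 CPM, adjusted p = 1.52e-18). SKP2, a ubiquitin ligase subunit, rose by 0.51 ± 0.11 (adjusted p = 0.000404), KIAA1524, the phosphatase inhibitor CIP2A, by 0.74 ± 0.11 (adjusted p = 1.56e-06), and the deubiquitinase USP7 by 0.34 ± 0.08 (adjusted p = 0.00134). In nascent RNA, 0 of the 20 cofactors (2 at an unadjusted p under 0.05) and 4 of the 14 turnover genes were called across phases.

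Of 31 measured genes that MYC is known to activate, 27 changed across phases at steady state, but not all in 1 direction. In G2 against G1, 7 were higher, 6 lower and 18 not called, with a median of -0.02. NCL, nucleolin, fell by 0.24 ± 0.06 in G2 relative to G1 (801 ± 17.5 against 949 ± 10.8 CPM, adjusted p = 0.00184). The ribosome assembly genes WDR43 (0.46 ± 0.12, adjusted p = 0.00505) and NOP16 (0.45 ± 0.11, adjusted p = 0.00126) and the kinase gene CDK4 (0.46 ± 0.08, adjusted p = 6.44e-05) rose. In Early_S relative to G1, NCL (-0.62 ± 0.06), WDR43 (-0.79 ± 0.12) and NOP16 (-0.54 ± 0.11) fell and CDK4 (0.60 ± 0.08) rose. At an unadjusted p under 0.05, Early_S against G1 had 19 of the list lower and 6 higher. G2 against Early_S had 17 higher and 6 lower. Over all genes, at the adjusted threshold, 1725 were higher and 1623 lower in the first contrast. In the second, 1428 were higher and 1232 lower. In nascent RNA 6 of 31 were called across phases (10.4% of all genes), and in G2 against G1 5 were higher (4.40% of all genes) and 0 lower (2.90% of all genes; 2 of the list at an unadjusted p under 0.05).

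Of 9 measured genes that MYC is known to repress, 7 changed across phases, and in G2 against G1 0 were higher (1 at an unadjusted p under 0.05), 6 lower and 3 not called (median -0.69). CDKN1A fell by 2.19 ± 0.08 (149 ± 16.3 against 682 ± 37.2 CPM, adjusted p = 5.91e-23) and GADD45A, a stress gene, by 2.17 ± 0.12 (adjusted p = 1.05e-17). NDRG1 fell by 0.69 ± 0.09 (adjusted p = 7.70e-08) and CLU, clusterin, by 0.55 ± 0.07 (adjusted p = 7.49e-08). In nascent RNA 5 of the 9 were called, with 1 higher and 3 lower in G2 than in G1. CDKN1A and GADD45A are also targets of p53.

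Of 5 genes that MondoA and MLX act on, all 5 changed across phases, and in G2 against G1 2 were lower and 3 not called (median -1.53). TXNIP, an inhibitor of glucose uptake and the best-known target of the pair, had 21.0 ± 5.14 CPM in G1, 8.55 ± 3.46 in Early_S, then 5.38 ± 2.42 in Late_S and 3.33 ± 1.99 in G2 (adjusted p = 2.41e-06). ARRDC3, an arrestin relative, fell by 1.53 ± 0.29 in G2 relative to G1 (adjusted p = 9.21e-05). HK2, a hexokinase, fell by 1.39 ± 0.24 in Early_S (adjusted p = 2.43e-05) and stood at 25.1 ± 5.44 CPM in G2 against 29.3 ± 2.93 in G1. ARRDC4 fell by 3.43 ± 1.06 in Early_S (0.452 ± 0.436 against 5.00 ± 2.26 CPM, adjusted p = 0.0142). In nascent RNA 0 of the 5 were called across phases, with 3 at an unadjusted p under 0.05.

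Of 14 measured genes of 3' end processing, 4 changed at steady state, and in G2 against G1 1 was higher, 1 lower and 12 not called (median -0.07). FIP1L1, a subunit of the cleavage and polyadenylation factor, fell by 1.08 ± 0.14 in Early_S relative to G1 (49.0 ± 11.9 against 104 ± 15.4 CPM, adjusted p = 1.17e-07). CSTF2, which binds downstream of the cleavage site, was the gene lower in G2 (-0.48 ± 0.13, adjusted p = 0.00494), and CPSF2 the gene higher (0.60 ± 0.17, adjusted p = 0.00922). CPSF1 was called across phases (adjusted p = 0.0423) and had 119 ± 7.53 CPM in G2 against 129 ± 7.63 in G1. In nascent RNA 1 of 13 was called.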

How the data were processed

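Per the labels, reads were mapped to hg38. Per the file headers, the deposited counts of reads, T>C reads, multimapped reads, covered and converted T positions were made with slamdunk 0.2.4 over 68625 regions of a merged Ensembl release 90 annotation (median 148 bases). The deposited conversion rate is a fraction of covered T positions, and was recomputed here from summed counts. The deposited CPM values, scaled by the authors to a total of which 58.9% to 69.7% lies in the regions, gave only that total; CPM in the text was computed here. The sources used here give neither aligner settings nor how many conversions a T>C read needs. Reads had no molecular identifiers, so limits cover counting error only.

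Members and gene lists were chosen with earlier results of these data known. Levels were fitted over the 12 alkylated libraries with edgeR 4.0.16 (R 4.3.3) quasi-likelihood tests, filterByExpr (minimum count 10, minimum total 15) and TMM factors, two-sided, with Benjamini-Hochberg adjustment over all genes within each contrast at 0.05. The labelled share was an interaction of phase and read kind, each kind with its own TMM factors. Alkylation was tested over 15 libraries scaled by total reads, for genes averaging 10 reads and holding 10 T>C reads in all. SE was taken from the F statistic (the change divided by its root), and intervals are 1.96 SE. Steps were tested on simulated data. Named were all members, up to 4 genes of each list with the smallest steady-state p, and the genes most alike (log2 CPM, prior count 2). A gene that this rule also picks is not reported here. CIP2A, EIF4A1 and PABPN1 are not listed under those names in the files, and CDKN2B had too few reads. Replicates differed beyond sampling noise (chi-square per degree of freedom 11.6 to 21.3).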

Additional observations from a re-analysis of the deposited data

How the results depend on the processing

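The call of MYC, MAX and MXD3 across phases at steady state was kept under RLE factors, DESeq2, no filter, the largest region, subtraction of multimapped reads and all 12 fits that left out a library, with 4 members called in the fit reported and 3 to 5 in those 12. Nascent and share results depend on scaling. Across phases 1192 genes were called in nascent RNA, 1854 with DESeq2 and 6340 when scaled by all reads, with 5 members in place of 2. In the labelled share, 1676 genes became 7120 and 2 members 5 by scaling by all reads. Member contrasts called went to 17 in place of 6 in nascent RNA and to 16 in place of 6 in the share. With own TMM factors, alkylation called 3731 genes in place of 10901 and 4 members in place of 7. The median change over genes was then 1.20 log2 in place of 5.19, with 2696 genes called higher and 1035 lower. Leaving out 1 library gave 1 to 2 nascent members called and 2 to 7 nascent member contrasts, and 0 to 3 regions called in region use across the 4 phases (3 without G2 replicate 1, 0 in the other fits). MYC in G2 against Late_S, not called, ranged from -0.10 to 0.16 log2 and turned negative without Late_S replicate 1 (-0.03) or G2 replicate 1 (-0.10). G2 against Late_S called 20 genes at steady state, 115 with DESeq2, 67 with no filter and 48 with the replicate block, and in nascent RNA 6, 103 with DESeq2 and 33 with no filter; in the share 5, 32 with no filter (MYC among them) and 8 by all reads. Leaving out 1 library, this contrast called 3 to 37 genes at steady state (3 without Late_S replicate 3, 7 without Late_S replicate 1, 10 without G2 replicate 2, 37 without G1 replicate 2), 1 to 19 in nascent RNA (1 without Late_S replicate 1, 3 without each G1 replicate or Early_S replicate 1, 19 without G2 replicate 2) and 1 to 7 in the share (1 without Late_S replicate 3, 2 without Late_S replicate 2). Other contrast counts moved too: with DESeq2, nascent Late_S against G1 called 982 genes, Late_S against Early_S 748 and G2 against Early_S 1053. By all reads, nascent Early_S against G1 called 965, Late_S against G1 5905, G2 against G1 6132, Late_S against Early_S 3944 and G2 against Early_S 4178, and in the share the last 4 called 6671, 7238, 5088 and 5494. The cause was not tested.

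Libraries with the same number deviated together at most weakly. Their r was -0.02 to 0.03 over 18 pairs (median 0.008), against -0.03 to 0.02 over 36 other pairs (median -0.003). Of the 12 libraries, 9 were closest to their own number, so a weak pairing is possible, and the fits reported do not model it. With the replicate block, 4930 genes were called at steady state, 1224 in nascent RNA and 1673 in the share, with 4, 2 and 2 members, and 5 nascent member contrasts in place of 6: MXD3 in G2 against G1 had 1.66 (adjusted p = 0.0603). MNT, MXD4 and nascent MXD3 rest on few reads, which limits what can be detected there.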
